A study of Schizosaccharomyces pombe with 6 samples.

Results

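The genes described here are the fission yeast (*Schizosaccharomyces pombe*) genes for sorting proteins to the vacuole, together with the Rab GTPase genes of the ypt series. Members were all probe sets whose platform annotation names a single *S. pombe* gene with a symbol that starts with vps, sst, vam, pep or ypt followed by a number, with 1 symbol left out. This gave 45 probe sets for 45 genes, of 2917 *S. pombe* probe sets on the array. Total RNA of 3 isp7 null samples and 3 wild-type samples was hybridized to 1 Affymetrix array each. Both groups were grown to mid-log phase in Edinburgh minimal medium with ammonium chloride. The labels give the genotypes as isp7+ null and wild type and name no other allele, mating type or replacement construct, nor do they say that replicates came from separate cultures or that the null samples came from more than 1 clone.

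Proteins bound for the vacuole, the yeast counterpart of the lysosome, leave the Golgi or the plasma membrane and pass through endosomes. The ESCRT complexes gather ubiquitinated membrane proteins, such as amino acid permeases, into vesicles inside the endosome, and retromer and GARP return receptors and membrane proteins towards the Golgi. Rab GTPases mark each membrane, and the tethering complexes HOPS and CORVET bind vacuolar and endosomal Rabs before the membranes fuse. The series' title places Isp7, a 2-oxoglutarate and iron dependent dioxygenase relative, in the control of amino acid uptake through TOR, and the comparison asks which transcripts differ without it.

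The isp7 probe set was at 6.02, 6.38 and 6.17 in the null arrays and at 11.70, 11.63 and 11.55 in the wild-type arrays on the log2 scale, so the targeted transcript followed the labels and was below background in every null array. The background, percentile 95 of the mean values of probe sets for budding yeast (*Saccharomyces cerevisiae*) genes, was 7.08. All 45 members had a mean above it, as did 97.6% of all *S. pombe* probe sets, and the members' values lay between 8.68 and 15.02. Arrays correlated at 0.998 to 0.999 within a group and at 0.973 to 0.978 between groups over the *S. pombe* probe sets. In what follows, higher and lower mean a limma adjusted p under 0.05 over all 2917 probe sets, and a rise or a fall means in addition a change of at least 1.5-fold. In bulk RNA a lower level of a transcript in each cell and fewer cells that carry it cannot be told apart.

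Of the 7 Rab GTPase genes of the ypt series 6 were higher in the null strain and none was lower, with and without a correction for gene length. Of the 7 members that belong to the tethering complexes HOPS and CORVET 5 were lower and 2 higher. After that correction 3 were lower, 2 higher and 2 not called. That is near the shares of all *S. pombe* probe sets after it, 38.3% lower and 33.4% higher. The 10 ESCRT genes were split, with 5 higher and 3 lower in both cases. Of the 45 members 25 were higher and 13 were lower in the null, and 7 were not called. Over all *S. pombe* probe sets 70.7% were called, 29.3% higher and 41.3% lower. The median log2 change of the members was 0.10, against -0.05 for all *S. pombe* probe sets. Only ypt4, ypt7 and ypt71 rose by 1.5-fold, 6.67% of the members against 4.22% of all probe sets, and none fell, against 4.39% of all. The null and wild-type values did not overlap for 39 members, 86.7% of them, against 76.1% of all probe sets. Differences between the classes were described and not tested.

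**Figure D1:**
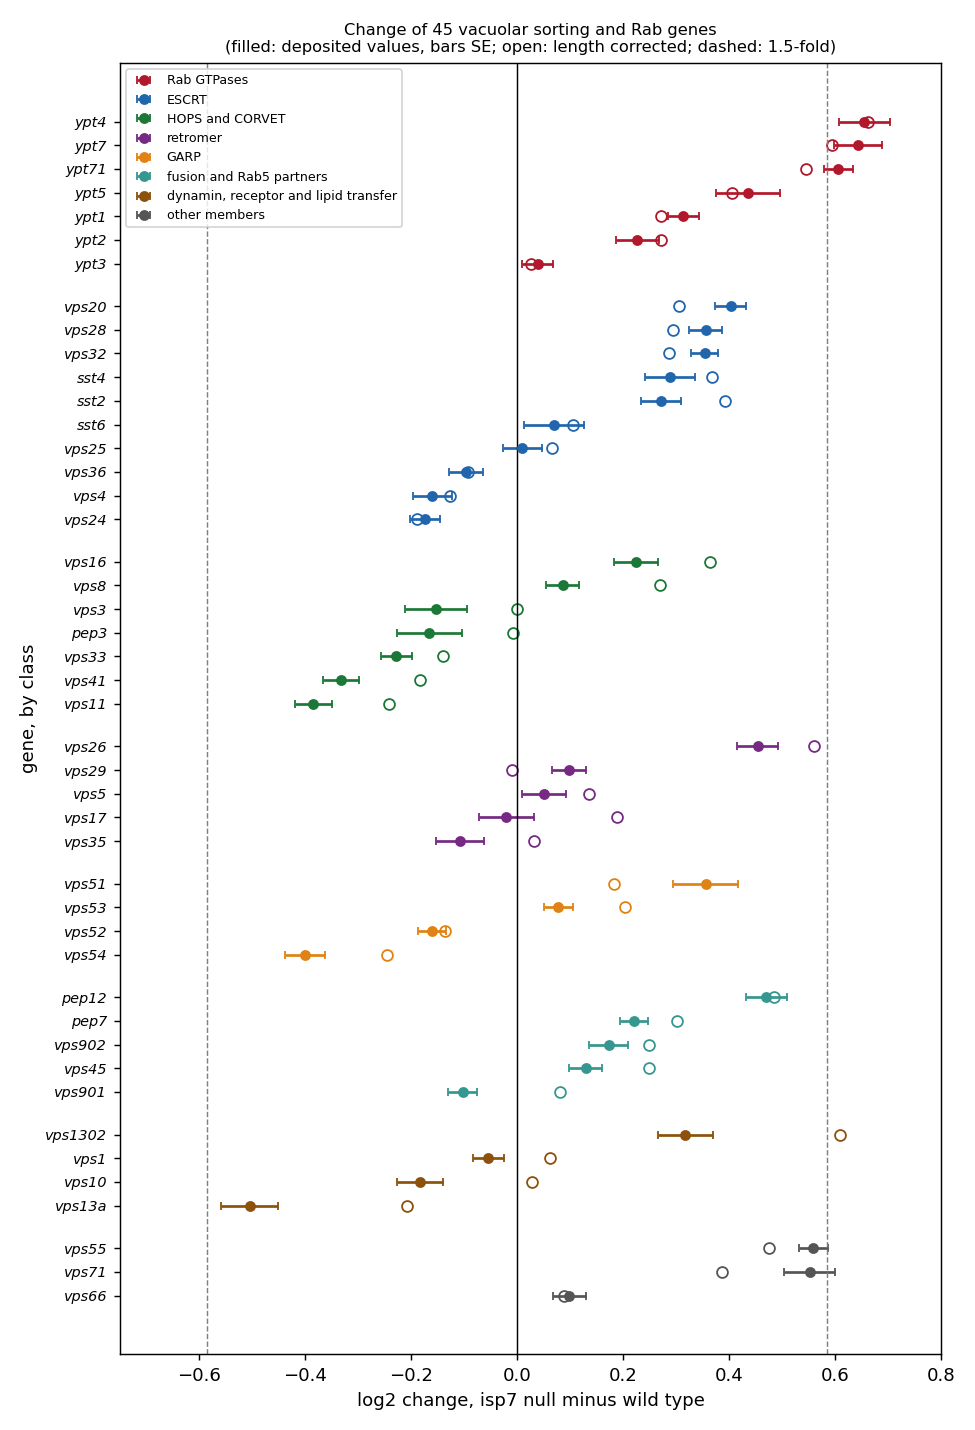
Log2 change (isp7 null minus wild type) of the 45 genes by class, with filled points and SE bars for the deposited values, open points after the gene length correction and dashed lines at 1.5-fold. All 7 Rab genes lie above 0, and 5 of 7 HOPS and CORVET genes lie below it.

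The changes of the members ran with gene length. Gene length and log2 change had a Spearman's rho of -0.60 across the 45 members, which share the same 6 arrays, against -0.37 over all *S. pombe* probe sets. The 14 members shorter than 1500 bases had a median change of 0.36, with 12 higher and 1 lower. The 13 members of 3000 bases or longer had a median of -0.15, with 3 higher and 8 lower. The same counts were not made for all *S. pombe* probe sets of these lengths. These counts therefore do not show whether the members differ from other genes of like length. The classes differ in length as well: the median gene length was 1382 bases for the Rab genes and 3201 bases for the HOPS and CORVET genes. Changes were therefore also computed after subtraction of each array's trend on gene length. With that correction 26 members were higher and 9 lower, against 33.4% and 38.3% of all probe sets. The members past 1.5-fold were then ypt4, vps1302 and ypt7, all higher, against 4.18% of all probe sets that rose and 2.91% that fell. The median of the members was then 0.19, that of the members shorter than 1500 bases 0.29 and that of the members of 3000 bases or longer 0.03. Among the members rho was still -0.31, while over all probe sets it was 0.04. What part length has in the changes was not tested beyond this correction.

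**Figure D2:**
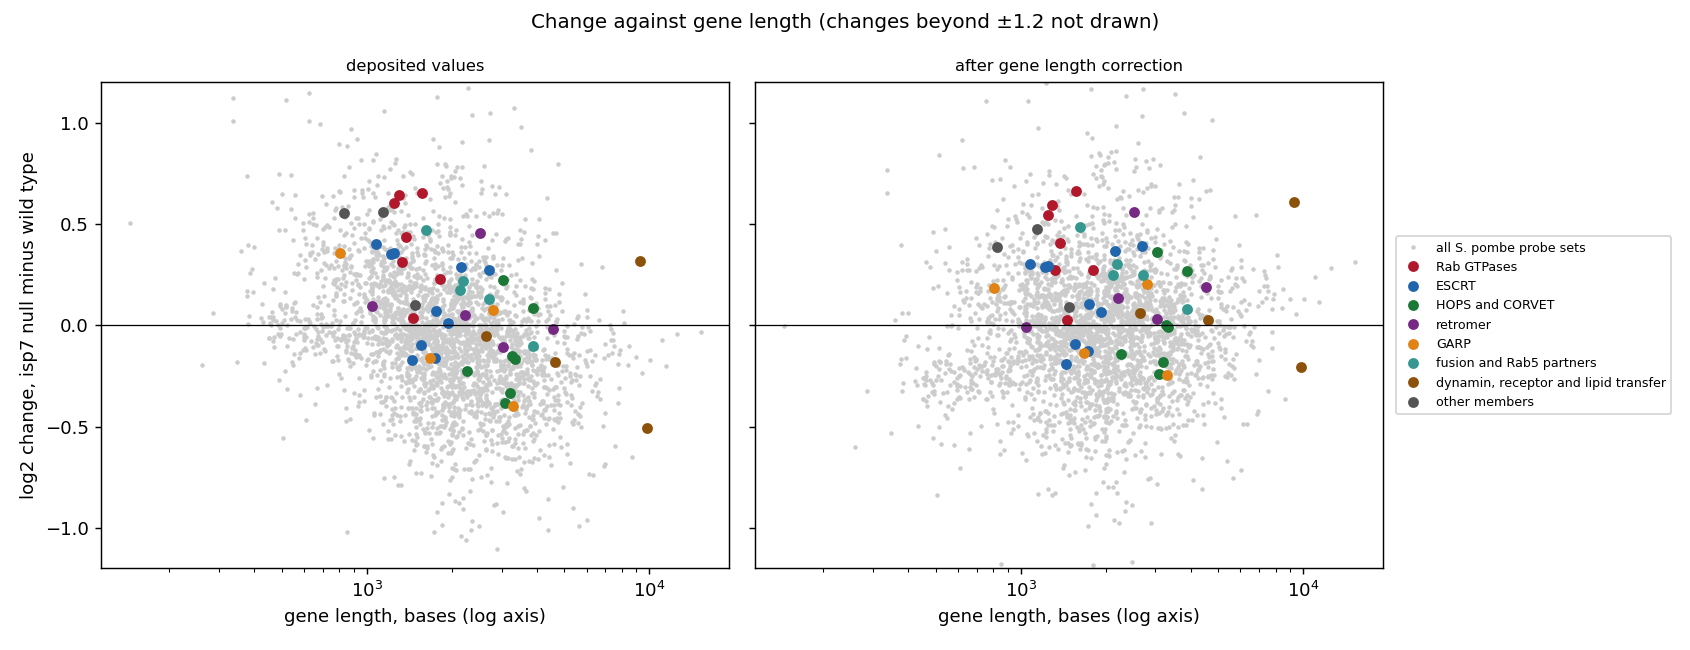
Log2 change (isp7 null minus wild type) against gene length in bases on a log axis, for all *S. pombe* probe sets (grey) and the 45 members (coloured by class), with deposited values in the left panel and length-corrected values in the right panel. In the left panel the members' rho is -0.60, and in the right panel it is -0.31.

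Of the 7 Rab genes 6 were higher in the null, by 1.17-fold to 1.57-fold, and none was lower. That is 85.7% higher, against 29.3% higher and 41.3% lower of all *S. pombe* probe sets. The median change was 0.44, and 0.41 after the length correction, which left the same 6 higher. In the arrays null 1, null 2 and null 3 the median of the 7 genes stood 0.45, 0.50 and 0.36 above the wild-type means on the log2 scale.

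The vacuolar Rabs Ypt7 and Ypt71, both related to mammalian Rab7, act in opposite ways on vacuole size, Ypt7 favouring fusion of vacuoles and Ypt71 opposing it. The ypt7 probe set was at 13.37, 13.36 and 13.31 in the null arrays and at 12.78, 12.62 and 12.72 in the wild-type arrays. The null values all lay above the wild-type values, and the log2 difference was 0.64 (SE 0.045, limma adjusted p = 2.39e-05). The ypt71 probe set was at 13.37, 13.35 and 13.35 in the null arrays and at 12.79, 12.73 and 12.74 in the wild-type arrays, a change of 0.61 (SE 0.028, limma adjusted p = 6.24e-06). The transcripts of these opposing Rabs were thus higher by a like amount, 1.56-fold and 1.52-fold. After the length correction ypt7 stood at 0.59 and remained past 1.5-fold, and ypt71 stood at 0.55 and did not. Whether the probe sets of these related genes share signal was not tested.

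The member with the largest change in either direction was ypt4, the gene of a Rab4-related GTPase. It was at 10.81, 10.76 and 10.74 in the null arrays and at 10.21, 10.03 and 10.10 in the wild-type arrays, a 1.57-fold rise (log2 change 0.66, SE 0.048, limma adjusted p = 2.77e-05). The wild-type arrays were more spread (SD 0.090, n = 3) than the null arrays (SD 0.033, n = 3), and the groups were far apart relative to both. The change was 0.66 also after the length correction. Leaving out any single array gave changes of 0.61 to 0.70 for ypt4, 0.60 to 0.68 for ypt7 and 0.59 to 0.62 for ypt71, and each remained past 1.5-fold.

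The early endosome Rab gene ypt5, related to Rab5, was at 13.04, 13.09 and 12.95 in the null arrays and at 12.47, 12.66 and 12.64 in the wild-type arrays. Its change was 0.44 (SE 0.060, limma adjusted p = 0.00052), or 0.41 after the length correction, with no overlap between the groups. Rabs of the secretory pathway were less changed or not called. The gene of the ER-to-Golgi Rab, ypt1, was at 15.02, 14.96 and 14.95 in the null arrays and at 14.65, 14.68 and 14.65 in the wild-type arrays, a change of 0.31 (SE 0.029, limma adjusted p = 7.12e-05). These values lie close to 15.65, the top of the scale on these arrays, where differences may be compressed. The gene of the secretory vesicle Rab, ypt2, was at 12.39, 12.50 and 12.41 in the null arrays and at 12.26, 12.18 and 12.18 in the wild-type arrays, a change of 0.23 (SE 0.040, limma adjusted p = 0.00179). For ypt3, a Rab11-related gene that acts in exocytosis and recycling, the null arrays were at 13.99, 14.05 and 14.00 and the wild-type arrays at 13.99, 13.97 and 13.97. Its groups overlapped, and the change of 0.04 had a 95% interval from -0.03 to 0.11 (limma adjusted p = 0.266). With each array centred on its median ypt3 stood at 0.09 and was called (limma adjusted p = 0.0321). Corrected for length, ypt1 and ypt2 both stood at 0.27 and were higher, and ypt3 stood at 0.03 and was not called.

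**Figure D3:**
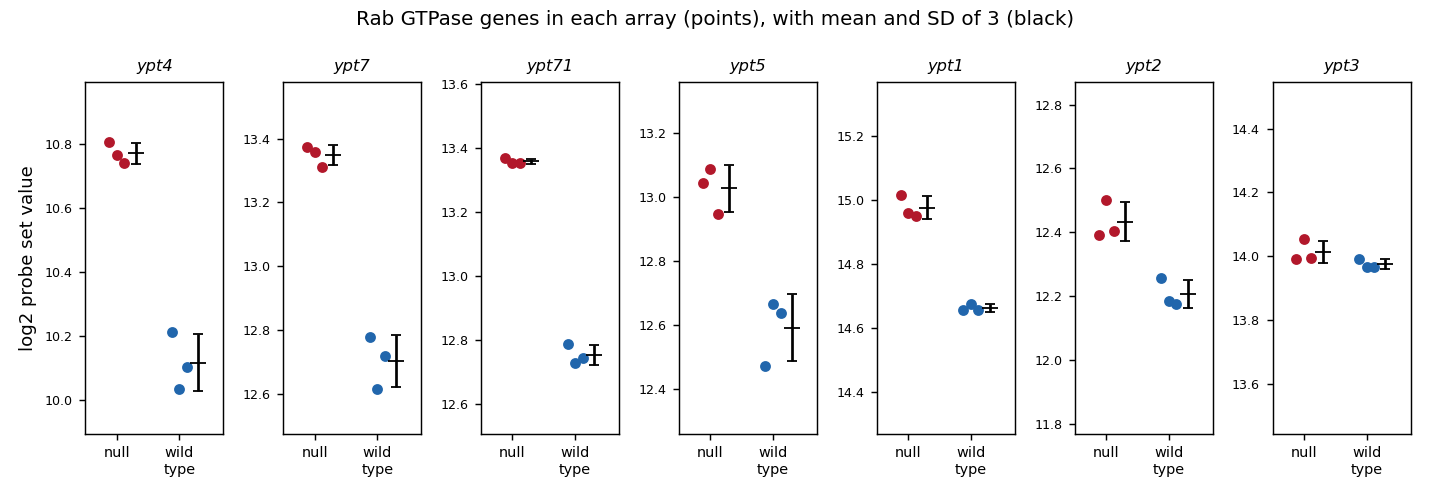
Log2 probe set values of the 7 Rab genes in each isp7 null array (red, left) and wild-type array (blue, right), with the mean and SD of 3 arrays in black; every panel spans the same range of log2 units. The null arrays lie above the wild-type arrays for 6 genes, and for ypt3 the groups overlap.

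The 10 ESCRT genes were split, with 5 higher, 3 lower and 2 not called, and a median change of 0.17 (0.20 after the length correction, with the same split). These counts are 50% higher and 30% lower, against 29.3% and 41.3% of all *S. pombe* probe sets. None passed 1.5-fold. Among the members of ESCRT-III, whose subunits polymerize on the endosomal membrane, vps20 and vps32 were higher and vps24 was lower. The ESCRT genes did4 and dot2 have the synonyms vps2 and vps22. They are not members, because the array's annotation uses the other names, and are given with the wider list.

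The ESCRT-III gene vps20, which encodes the subunit that starts the polymer, was at 10.81, 10.88 and 10.83 in the null arrays and at 10.45, 10.43 and 10.44 in the wild-type arrays. Its change was 0.40 (SE 0.029, limma adjusted p = 2.48e-05). The gene of the main polymer subunit, vps32, was at 12.32, 12.34 and 12.30 in the null arrays and at 11.95, 11.98 and 11.96 in the wild-type arrays, a change of 0.35 (SE 0.026, limma adjusted p = 2.66e-05). In both genes each group was tight and the groups were well apart. By contrast vps24, the gene of a subunit that caps the polymer, was lower with a change of -0.17 (SE 0.029, limma adjusted p = 0.00133), and so was vps4, the gene of the ATPase that takes ESCRT-III apart, with -0.16 (SE 0.037, limma adjusted p = 0.00591). The signs of these 4 genes were the same after the length correction, at 0.30, 0.29, -0.19 and -0.13.

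The ESCRT-0 gene sst4, the counterpart of VPS27 of *S. cerevisiae*, whose product binds ubiquitinated cargo, was higher (0.29, SE 0.047, limma adjusted p = 0.00124). The ESCRT-I gene vps28 was at 11.76, 11.76 and 11.70 in the null arrays and at 11.42, 11.37 and 11.36 in the wild-type arrays, a change of 0.36 (SE 0.031, limma adjusted p = 5.70e-05). Its ESCRT-I partner sst6, the counterpart of VPS23, overlapped between the groups, with a change of 0.07 and a 95% interval from -0.07 to 0.20. The gene sst2, counted here with the ESCRT genes, encodes a deubiquitinating enzyme of the AMSH family that removes ubiquitin from cargo. Its transcript was higher by 0.27 (SE 0.038), and by 0.39 after the length correction. In ESCRT-II, vps25 was not called (0.01, 95% interval -0.08 to 0.10). The ESCRT-II gene vps36 was lower by a small amount (-0.10, limma adjusted p = 0.0301), a call that ended when null array 1 or 2 or wild-type array 1 or 3 was left out (adjusted p up to 0.0930). It ended also under median centring (adjusted p = 0.233) and under further processing alternatives, named below. The length-corrected changes of sst4, vps28 and vps36 were 0.37, 0.29 and -0.09, each still called, while sst6 at 0.11 and vps25 at 0.07 were not called.

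All 7 members of the HOPS and CORVET class were called in the deposited values, 5 lower and 2 higher, with a median change of -0.17. These counts are 71.4% lower and 28.6% higher, against 41.3% and 29.3% of all *S. pombe* probe sets. None passed 1.5-fold. HOPS and CORVET share a core, made of the products of vps11, vps16, pep3 (the counterpart of VPS18 of *S. cerevisiae*) and vps33. In *S. cerevisiae* Vps41 belongs to HOPS, which acts at the vacuole, and Vps3 and Vps8 belong to CORVET, which acts at endosomes.

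The core gene vps11 was at 12.07, 12.11 and 12.11 in the null arrays and at 12.50, 12.42 and 12.52 in the wild-type arrays, a change of -0.38 (SE 0.035, limma adjusted p = 6.45e-05). The HOPS gene vps41 was at 10.06, 10.00 and 10.07 in the null arrays and at 10.42, 10.35 and 10.35 in the wild-type arrays, a change of -0.33 (SE 0.034, limma adjusted p = 0.000106). The core gene vps33, which encodes the Sec1/Munc18 family subunit that acts on fusion proteins, was at 11.81, 11.88 and 11.83 in the null arrays and at 12.09, 12.05 and 12.07 in the wild-type arrays, a change of -0.23 (SE 0.029, limma adjusted p = 0.000351). For these 3 genes every null array lay below every wild-type array, and they were lower also after the length correction, at -0.24, -0.18 and -0.14. The core subunit gene vps16 went the other way in the null, at 0.22 (SE 0.041, limma adjusted p = 0.00211) and at 0.36 after the correction.

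The remaining HOPS and CORVET genes rested on smaller differences. The core gene pep3 had a change of -0.17 (limma adjusted p = 0.0440) and the CORVET gene vps3 one of -0.15 (limma adjusted p = 0.0475), with null array 1 lower than the other null arrays in both. After the length correction pep3 stood at -0.01 and vps3 at 0.00, and neither was called. The call of vps3 also ended without null array 1 or 2 or wild-type array 1 or 3 (adjusted p up to 0.145), and that of pep3 without null array 1 or any single wild-type array (adjusted p up to 0.137). The further CORVET gene vps8 was slightly higher (0.09, limma adjusted p = 0.0405), and its call ended without null array 2 or 3 or wild-type array 2 or 3 (adjusted p up to 0.125). With the length correction vps8 stood at 0.27 (limma adjusted p = 0.000167), so that 2 genes of the class were higher, 3 lower and 2 not called, with a median of -0.01. Over all *S. pombe* probe sets 33.4% were then higher and 38.3% lower, so the class lay near the shares of all.

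**Figure D4:**
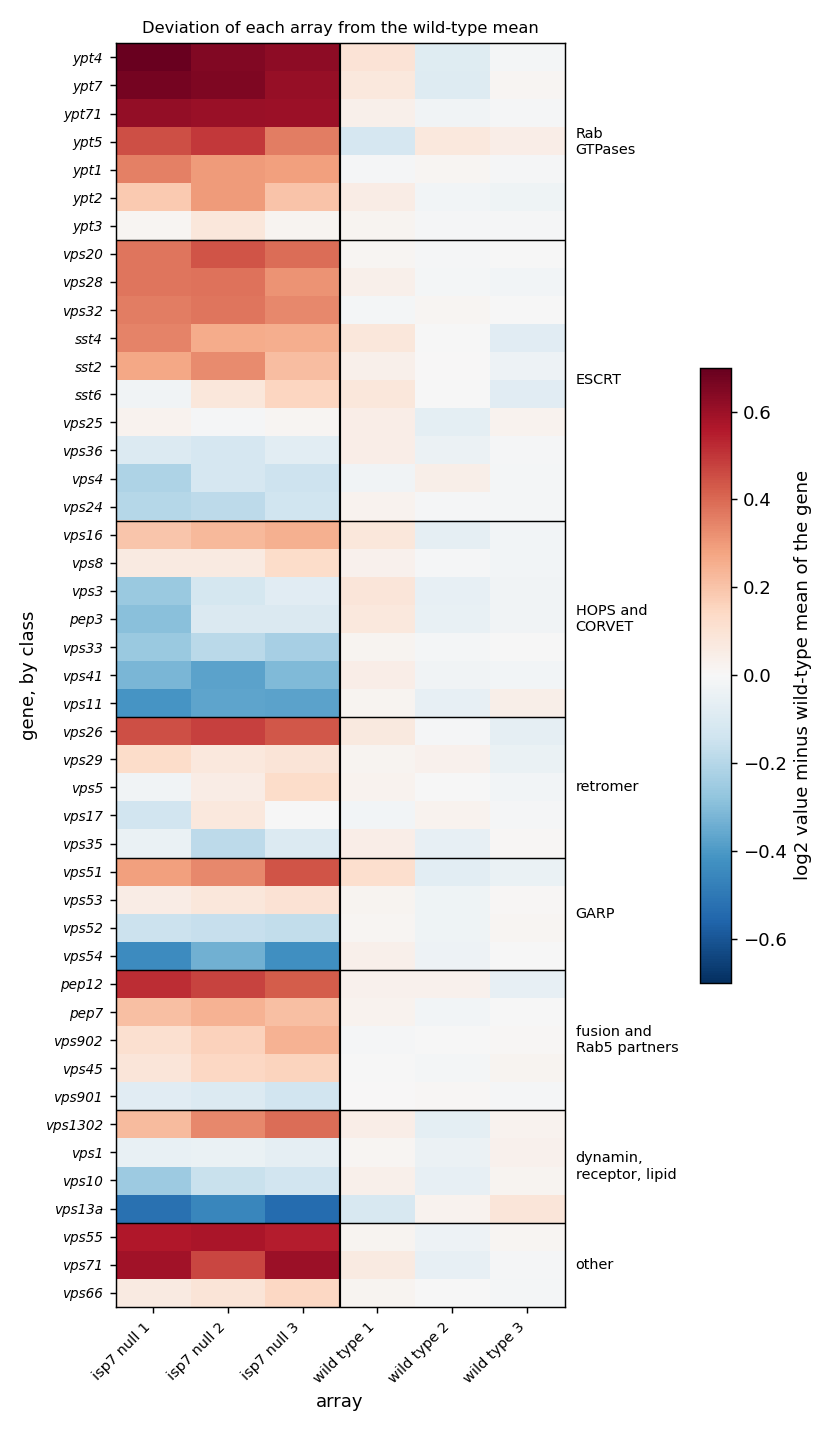
Log2 value of each array minus the wild-type mean of the gene, for the 45 genes (rows, by class) in the 3 isp7 null arrays (left) and the 3 wild-type arrays (right). The null columns are above 0 for all 7 Rab genes, only slightly for ypt3, and of mixed sign for the ESCRT, HOPS and CORVET, retromer and GARP genes.

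Of the 5 retromer genes 2 were higher and 3 were not called, and 1 gene, vps26, stood apart from the rest. That is 40% higher and none lower, against 29.3% and 41.3% of all *S. pombe* probe sets. Retromer consists of a cargo-binding part, Vps26, Vps29 and Vps35, and the sorting nexins Vps5 and Vps17. The vps26 probe set was at 12.19, 12.21 and 12.17 in the null arrays and at 11.81, 11.73 and 11.68 in the wild-type arrays. The groups did not overlap, and the change was 0.45 (SE 0.039, limma adjusted p = 5.02e-05), or 0.56 after the length correction.

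The cargo-binding partners of Vps26 did not show a change of that size. The vps35 probe set was at 11.81, 11.67 and 11.76 in the null arrays and at 11.91, 11.80 and 11.87 in the wild-type arrays, with a change of -0.11 (95% interval -0.22 to -0.0007) that missed the adjusted threshold (limma adjusted p = 0.0673). It passed when null array 1 or wild-type array 2 was left out (adjusted p = 0.0303 and 0.0461), and with a replicate block (adjusted p = 0.0279). After the length correction vps35 stood at 0.03 and was not called (limma adjusted p = 0.575). The vps29 probe set was at 12.54, 12.48 and 12.50 in the null arrays and at 12.43, 12.44 and 12.37 in the wild-type arrays, with a change of 0.10 (limma adjusted p = 0.0298). This call ended without null array 1 or 3 or wild-type array 3 (adjusted p up to 0.105), and after the length correction vps29 stood at -0.01.

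Of the sorting nexin genes, vps5 had a change of 0.05 (95% interval -0.05 to 0.15) and vps17 one of -0.02 (95% interval -0.14 to 0.10). Null array 1 was the lowest null array in both, at 11.65 for vps17 against 11.86 and 11.79 in null arrays 2 and 3. Without null array 1 the change of vps17 was 0.04. After the length correction vps5 stood at 0.14 and vps17 at 0.19, both higher, with limma adjusted p = 0.0133 and 0.00704.

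The 4 genes of GARP, which tethers endosome-derived vesicles at the Golgi, were divided evenly, with 2 higher and 2 lower. Over all *S. pombe* probe sets 29.3% were higher and 41.3% lower. The vps54 probe set was at 9.87, 9.98 and 9.89 in the null arrays and at 10.35, 10.28 and 10.31 in the wild-type arrays, a change of -0.40 (SE 0.038, limma adjusted p = 7.73e-05). The vps51 probe set, of the shortest gene among the members at 805 bases, was at 9.14, 9.19 and 9.29 in the null arrays and at 8.97, 8.78 and 8.81 in the wild-type arrays, a change of 0.36 (SE 0.062, limma adjusted p = 0.0016). These were the extremes of the class, opposite in sign and without overlap between the groups. With the length correction they stood at -0.25 (limma adjusted p = 0.000461) and 0.18 (limma adjusted p = 0.0223). The call of vps51 ended under 1 further alternative, named with the other processing alternatives. The vps52 probe set was at 11.97, 11.97 and 11.95 in the null arrays and at 12.14, 12.10 and 12.14 in the wild-type arrays, a change of -0.16 (SE 0.027, limma adjusted p = 0.00126), or -0.14 after the correction. The small change of vps53 (0.08, limma adjusted p = 0.0405) lost its call without any single array except null array 1 (adjusted p up to 0.125), and stood at 0.20 after the correction.

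Among the genes that work with Rab5-type GTPases and in membrane fusion, 4 of 5 were higher and 1 was lower, with a median change of 0.17 (0.25 after the length correction). These counts are 80% higher and 20% lower, against 29.3% and 41.3% of all *S. pombe* probe sets. The leading gene was pep12, which encodes a syntaxin of the late endosome. It was at 11.96, 11.92 and 11.87 in the null arrays and at 11.48, 11.47 and 11.39 in the wild-type arrays, a change of 0.47 (SE 0.039, limma adjusted p = 4.31e-05). The pep7 gene, which encodes a FYVE domain protein that in *S. cerevisiae* joins the endosomal Rab to the fusion machinery, was at 11.04, 11.07 and 11.04 in the null arrays and at 10.85, 10.81 and 10.82 in the wild-type arrays, a change of 0.22 (SE 0.027, limma adjusted p = 0.000261).

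The Sec1/Munc18 family gene vps45, whose product binds endosomal syntaxins, was higher by 0.13 (SE 0.030, limma adjusted p = 0.00691). The genes vps901 and vps902 encode relatives of the Vps9 exchange factor, which activates Rab5-type GTPases, and they differed in sign. The vps902 probe set, whose gene is now named muk1, was at 11.85, 11.90 and 11.98 in the null arrays and at 11.73, 11.74 and 11.75 in the wild-type arrays, a change of 0.17 (SE 0.037, limma adjusted p = 0.0047). The vps901 probe set had a change of -0.10 (SE 0.027, limma adjusted p = 0.0106), which turned to 0.08 and lost its call after the length correction (adjusted p = 0.0649). Its call ended also under median centring (limma adjusted p = 0.165) and under further processing alternatives, named below. After the same correction pep12 stood at 0.48, pep7 at 0.30, and vps45 and vps902 both at 0.25, all higher.

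The Vps13 proteins are very long bridges that carry lipids between membranes, and their genes moved in opposite directions. The vps13a probe set, whose gene is now named vps1301, was at 8.70, 8.77 and 8.68 in the null arrays and at 9.11, 9.25 and 9.31 in the wild-type arrays. This change of -0.51 (SE 0.054, limma adjusted p = 0.000142) was the largest decrease among the members, 1.42-fold. The vps1302 probe set was at 12.18, 12.30 and 12.35 in the null arrays and at 12.01, 11.89 and 11.98 in the wild-type arrays, a change of 0.32 (SE 0.052, limma adjusted p = 0.0012). These are the longest genes among the members, at 9856 bases for vps13a and 9267 bases for vps1302. After the correction they stood at -0.21 and 0.61, and vps1302 then passed 1.5-fold, but only 8 *S. pombe* probe sets are for genes of 9000 bases or longer, so the trend is thinly supported there.

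The vps10 gene, which encodes the receptor that carries carboxypeptidase Y to the vacuole, was at 12.48, 12.58 and 12.60 in the null arrays and at 12.77, 12.68 and 12.76 in the wild-type arrays. Its change of -0.18 (SE 0.043, limma adjusted p = 0.00641) turned to 0.03 and lost its call after the length correction. The dynamin-related gene vps1 had a change of -0.05 with a 95% interval from -0.12 to 0.01 and was not called, and stood at 0.06, again not called, after the correction.

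The last 3 members belong to none of these classes, and all 3 were higher, against 29.3% of all *S. pombe* probe sets. The vps55 gene encodes a small membrane protein that in *S. cerevisiae* acts in transport from endosome to vacuole. It was at 14.05, 14.06 and 14.04 in the null arrays and at 13.51, 13.46 and 13.51 in the wild-type arrays, a change of 0.56 (SE 0.028, limma adjusted p = 7.83e-06), just short of 1.5-fold. The vps71 gene, also named swc6, encodes a subunit of the SWR1 chromatin remodelling complex and not a sorting protein. It was at 11.20, 11.08 and 11.21 in the null arrays and at 10.68, 10.56 and 10.60 in the wild-type arrays, a change of 0.55 (SE 0.048, limma adjusted p = 5.32e-05). With each array centred on its median vps55 and vps71 stood at 0.61 and 0.60, past 1.5-fold. Their length-corrected changes were 0.47 and 0.39, and both were still higher. The vps66 probe set was at 12.57, 12.59 and 12.65 in the null arrays and at 12.52, 12.50 and 12.49 in the wild-type arrays, a change of 0.10 (limma adjusted p = 0.0232) whose call ended without null array 2 or 3 or wild-type array 2 or 3 (adjusted p up to 0.0773). Its length-corrected change was 0.09.

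Outside the members, 57 genes of a wider list of the same pathway were measured. Of these 29 were higher and 15 lower, or 50.9% and 26.3%, against 29.3% and 41.3% of all *S. pombe* probe sets, with a median change of 0.13. By 1.5-fold 4 rose, 7.02% against 4.22% of all probe sets, and none fell, against 4.39%. The rises were those of 2 vacuolar protease genes and 2 SNARE genes. The vacuolar serine protease gene isp6 was at 14.22, 14.32 and 14.18 in the null arrays and at 12.72, 12.49 and 12.63 in the wild-type arrays, a 3.09-fold rise (log2 change 1.63, SE 0.064, limma adjusted p = 4.49e-06). The related protease gene psp3 rose 1.6-fold (0.68, SE 0.035, limma adjusted p = 8.53e-06). In their class of 4 vacuolar cargo and vacuole genes, cpy1 was higher by only 0.13 (limma adjusted p = 0.00427). In the same class ape2 was lower, at -0.23 (limma adjusted p = 0.00175). After the length correction cpy1 stood at 0.30, and ape2 stood at -0.06 and was not called. The SNARE gene bet1 rose 1.57-fold (0.65, SE 0.050, limma adjusted p = 3.35e-05) and vti1, the gene of a SNARE of the Golgi, endosome and vacuole, rose 1.55-fold (0.63, SE 0.038, limma adjusted p = 1.29e-05). The length correction left isp6, psp3 and vti1 past 1.5-fold and took bet1 to 0.55.

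By function, the SNARE and fusion genes of the wider list had 12 higher and 1 lower of 16, or 75% and 6.25%, with a median of 0.25. The vesicle coat and adaptor genes had 5 higher and 9 lower of 18, or 27.8% and 50%, with a median of -0.10, led among the lower by apl5 (-0.52, SE 0.041, limma adjusted p = 3.58e-05), which encodes a subunit of the AP-3 adaptor for transport to the vacuole. Of 5 further ESCRT genes and partners, hse1, ist1 and did4 (vps2) were higher by 0.53, 0.57 and 0.42. The other genes of these, did2 and dot2 (vps22), had changes of -0.02 and -0.04 and were not called. After the length correction dot2 was lower, at -0.12. The 8 genes of Rabs and Rab regulators outside the members had 3 higher, 2 lower and 3 not called, or 37.5% higher and 25% lower. Their median was 0.01, and 0.11 after the length correction. Among them the Rab GTPase gene ryh1 was not called (-0.09, limma adjusted p = 0.0638). Median gene lengths were 1484 bases for the SNARE and fusion genes and 2686 bases for the adaptors. After the length correction the medians were 0.27 and 0.01, with 13 higher and none lower of the SNARE genes and 7 higher and 5 lower of the adaptors.

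Of the 38 called members, 28 had the same direction and call under all 17 alternatives tried, 20 of them higher and 8 lower in the null. Over all *S. pombe* probe sets 70.7% were called. The share of them that kept its call under every alternative was not computed, so this count cannot be read as particular to the members. The 8 lower members were vps24, vps4, vps33, vps41, vps11, vps52, vps54 and vps13a. The 20 higher members included 6 Rab genes, 5 ESCRT genes, 4 genes of the fusion class, vps16, vps26, vps1302, vps55 and vps71.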

How the data were processed

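The authors deposited log2 values for each probe set on each of the 6 arrays. According to the submitters' processing notes these come from RMA, and Partek 6.5 was used. RMA brings arrays to 1 distribution, so a change in total RNA per cell is removed. All 6 columns were used. Gene names come from the platform annotation, matched by gene ID to RefSeq assembly ASM294v3 (all 45 members matched, 2 of which have newer symbols), from which gene lengths also come. The excluded symbol is not reported here.

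The 2917 *S. pombe* probe sets were fitted with limma 3.58.1 in R 4.3.3 (lmFit, eBayes without trend or robust prior), isp7 null minus wild type, with two-sided p adjusted by Benjamini and Hochberg. Thresholds follow the series' design text (5% false discovery rate, 1.5-fold). Errors are SD over 3 arrays or the SE of the fit, and precision is limited by having 6 arrays. The p-values rest on array-to-array spread within a group, part or all of which may be technical.

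The length correction subtracts, per array, a loess (degree 1) of the deviations from probe set means on log2 gene length. Every member is named. Values per array are given for every ypt gene, for members past 1.5-fold and for the 3 largest changes of each class. Pathway genes past 1.5-fold are named, and apl5, hse1, ist1, did4, did2, dot2, ryh1, cpy1 and ape2 were picked with their values in view. Members and lists were chosen with earlier results of these data known. The fitting code was tested on simulated data.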

Additional observations from a re-analysis of the deposited data

How the results depend on the processing

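The alternatives were an intensity trend, a robust prior, unmoderated variances, a replicate block, median centring, quantile normalization run again, the length correction with and without the block, a background filter, all probe sets of the array, averaging per gene, and leaving out each array. Median centring, the repeated quantile normalization and the length correction used the *S. pombe* probe sets only and left out those of *S. cerevisiae*. Rises among members numbered 5 with median centring (vps55 and vps71 added), and rises in the wider pathway list 7 under median centring and also 7 after quantile normalization was run again, with mvp1, gyp7 and ist1 added. The members' median change was 0.15 with median centring and 0.19 with the length correction, with or without the replicate block. Without single arrays 21 to 24 members were higher, 10 to 13 lower and 3 to 4 rose, none fell, and the members' median was 0.08 to 0.12; in the pathway list 4 to 7 rose and none fell. Changes of sign occurred with quantile normalization run again (vps17 0.0055, vps1 0.017), with median centring (vps17 0.028) and with the length correction, with or without the block (vps3 0.00023, vps29 -0.0090, vps17 0.19, vps35 0.032, vps901 0.080, vps1 0.061, vps10 0.027). Without single arrays vps17 lay between -0.067 and 0.036 and vps25 between -0.026 and 0.034. Median centring and the repeated quantile normalization each ended the calls of vps36, vps3, pep3 and vps901, and vps5 was then called higher. With the replicate block vps36, vps8, vps3, pep3, vps29, vps53 and vps66 lost their calls. With all probe sets of the array these and vps901 were not called. The intensity trend ended the calls of vps36 and vps53, and unmoderated variances those of vps3 and pep3. The cause of these changes was not tested. Over all *S. pombe* probe sets 123 rose and 128 fell, against 154 and 94 (median centring), 144 and 104 (quantile normalization run again) and 122 and 85 (length correction).

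Same-numbered arrays of the groups had deviations that correlated at -0.12, -0.25 and 0.11, and 2 of 6 arrays correlated best with their own number. No sign of a pairing by number was seen, but with 3 arrays per group this check cannot exclude one. With the replicate block 21 members were higher and 11 lower, and 3 rose. With the block and the length correction together vps51 stood at 0.18 and lost its call (limma adjusted p = 0.0515). So did vps66, at 0.09 (limma adjusted p = 0.0630). The number of arrays limits what can be seen. Compression of values near the array's highest value may limit it too, but was not measured.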

Other observations

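The members hold no subunit of the phosphatidylinositol 3-kinase complex, which makes the lipid that recruits ESCRT-0, FYVE proteins and sorting nexins to endosomes, because the array's annotation uses other names for its genes. These genes were looked up after the values of the members had been seen. The catalytic subunit gene pik3, the counterpart of VPS34 of *S. cerevisiae*, was at 11.40, 11.25 and 11.29 in the null arrays and at 11.08, 11.04 and 11.10 in the wild-type arrays, a change of 0.24 (SE 0.043, limma adjusted p = 0.00178), or 0.36 after the length correction. The gene of the regulatory kinase, vps15, annotated on the array as ppk19, had a change of 0.04 (limma adjusted p = 0.436), and 0.27 after the correction (limma adjusted p = 0.000311). The gene vps38, annotated on the array as atg14, had a change of -0.15 (limma adjusted p = 0.0218), and -0.08 after the correction, where it was not called. The complex's shared subunit gene atg6 was higher by 0.44 (SE 0.059, limma adjusted p = 0.000464).

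In 5 cases members lie close together on a chromosome, with 2 to 6 protein-coding genes between them. In 4 of them the log2 changes had opposite signs: vps45 (0.13) and vps4 (-0.16), ypt2 (0.23) and vps24 (-0.17), ypt1 (0.31) and vps33 (-0.23), and vps1302 (0.32) and vps10 (-0.18). In the remaining case vps28 (0.36) and ypt4 (0.66) were both higher. How often other neighbouring genes differ in sign was not computed, so these counts cannot be read as particular to the members.

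The array also carries 40 probe sets for *S. cerevisiae* genes with the same kinds of names. Their mean values ran from 4.8 to 7.31 with a median of 5.68, and 2 of the 40, for VPS34 and VPS53, lay above the background of 7.08. These 40 are among the probe sets that set the background, so that few of them exceed it follows from its definition. All 45 *S. pombe* members lay above it, as did 97.6% of all *S. pombe* probe sets.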
